A study of Homo sapiens with 6 samples.

Results

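Chromatin modifiers and remodellers are the proteins that write, erase and read chemical marks on histones and DNA, or move and restructure nucleosomes. The 153 genes described here are those of the 13707 complete rows of the deposited table whose symbols belong to named chromatin families, from the KDM, KMT, SETD, HDAC, SIRT and PRMT enzymes to the SMARC, CHD and INO80 remodellers and the BRD, CBX, PHF and ING readers, together with HCFC1. The rule reads the symbol and no measured value. NSDHL, a sterol dehydrogenase, was caught by its first letters alone and is no chromatin gene. It is kept in every count because the rule takes it.

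The libraries hold messenger RNA of MDA-MB-231 cells, a long-established breast cancer line that lacks the oestrogen, progesterone and HER2 receptors. Control cells were set against cells given 20 µM colistimethate, from which the antibiotic colistin is released, with 3 repeats. Its 6 libraries are titled C1, C2, C3, K1, K2 and K3, all from the same line, and the labels do not tell which letter stands for which arm. Every difference below is therefore C relative to K, and neither letter is named as the treated one. No treatment time is given, nor is it said if repeats were separate cultures, so that the spread behind the p-values may be technical.

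Histone lysine methylation is laid down by SET-domain enzymes and removed by KDM enzymes, and its effect depends on the residue. Methylation of H3K4 marks active promoters and enhancers, whereas H3K27 methylation by Polycomb repressive complex 2 (PRC2) and H3K9 methylation go with silencing. Acetylation by KAT enzymes and EP300 opens chromatin and is reversed by HDACs and the NAD-dependent sirtuins. Proteins with bromodomains, PHD fingers or chromodomains bind these marks, and ATP-dependent SWI/SNF, CHD, ISWI and INO80 machines reposition nucleosomes. DNMT enzymes methylate cytosine, and TET enzymes oxidise that mark. HCFC1, host cell factor, is a scaffold that brings SET1/MLL methyltransferases and SIN3 deacetylase complexes to promoters.

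Depth over the listed genes ran from 31438065 to 35946691 counts per library. The chromatin genes took between 1.58% and 1.68% of those counts in each library. Of 25 chosen cell type markers, 15 were listed. The receptor genes ESR1, PGR and ERBB2 were not, so the lack of receptors could not be checked. CDH1, the epithelial cadherin, was listed at 0 in every library. AXL and CD44, mesenchymal-type surface proteins, were at 710 to 878 and 195 to 280 TPM (a level per gene length, scaled to the library). The epithelial genes KRT8 and EPCAM were at 196 to 229 and 4.24 to 6.1 TPM. CD3E, a defining marker of T cells, was listed at 0. SRGN, a blood-cell proteoglycan, was at 400 to 425 TPM. Transcripts of the mitochondrial genome took 3.11% to 3.25% of the counts of listed genes in C and 4.99% to 5.85% in K.

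Of the 153 genes, 140 had enough counts to be tested. The 13 that did not included the germline MBD3L2, MBD3L4 and MBD3L5, the DNMT3L cofactor, the arginine methyltransferase PRMT8 and ASXL3, and 11 of the 13 were listed at 0 in all 6 libraries. Levels of the tested genes spanned a wide range, with 15 above 100 TPM, 95 between 10 and 100 TPM and 30 below 10 TPM, around a median of 23.3 TPM. PRMT1, the main enzyme of asymmetric arginine methylation, had the highest level, at 684.8, 638.1 and 642.6 TPM in C1 to C3 and 608.9, 614.7 and 636.4 TPM in K1 to K3. DNMT1, which copies cytosine methylation onto newly replicated DNA, came next at a mean of 232.2 TPM, then MTA2, a subunit of the NuRD deacetylase complex, at 213.5 TPM.

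By role, the arginine methyltransferases had a median of 52.2 TPM and the SWI/SNF subunits 47.1 TPM, the highest among groups of more than 1 tested gene. Genes of DNA methylation and methyl-cytosine binding had the lowest median, 6.18 TPM, although DNMT1 is among them. The most abundant lysine methyltransferase was NSD2, an H3K36 enzyme, at 150.2 TPM. Among the readers it was PHF19, a PRC2 accessory protein, at 153.1 TPM, and among the coregulators NCOA4, which delivers ferritin to autophagy, at 140.9 TPM. HDAC3, the deacetylase of the NCoR complex, led the listed deacetylases at 96.25 TPM. KAT2A of the SAGA complex led the acetyltransferases at 96.28 TPM, and KDM5C, an H3K4 demethylase, led the demethylases at 94.2 TPM. These ranks and medians cover the listed genes only. HDAC1, HDAC2, CREBBP, KDM1A, SMARCA4 and MBD2 belong to the same families and were not among the genes described here.

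**Figure D1:**
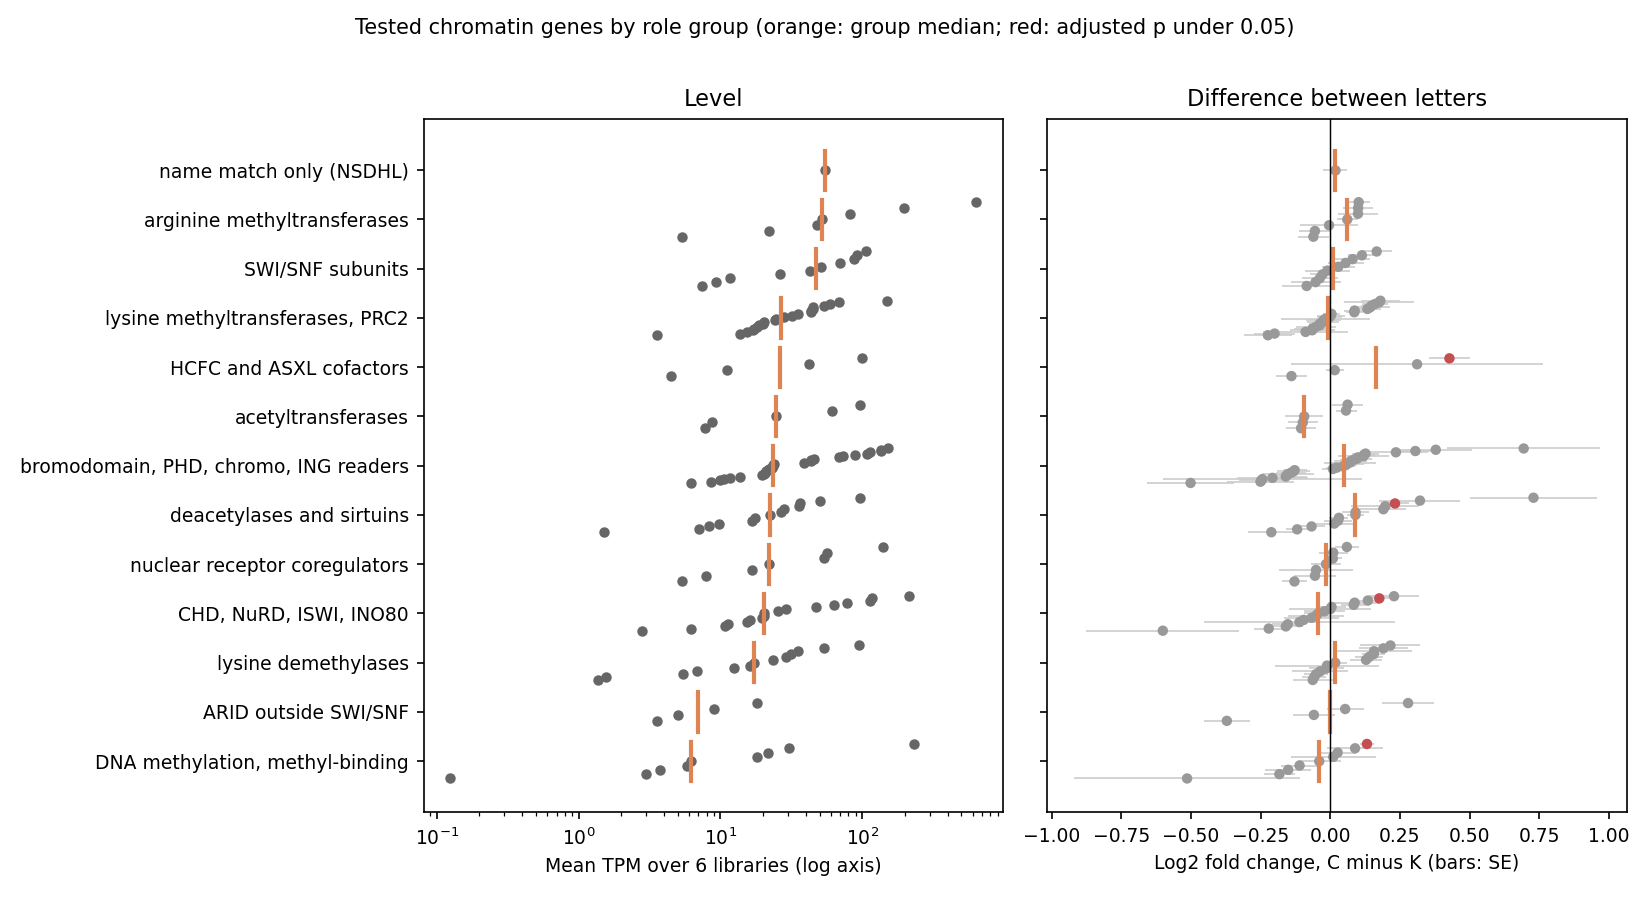
Each point is 1 of the 140 tested chromatin genes, in rows by role group. The left panel plots the mean TPM over 6 libraries on a log axis, and the right panel plots the log2 fold change of C minus K with its standard error; orange lines are group medians. The arginine methyltransferases have a median of 52.2 TPM, and the 4 red points, with adjusted p under 0.05, all lie right of 0.

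Between the letters, 4 of the 140 tested chromatin genes passed the test, all higher in C: HCFC1, DNMT1, CHD4 and SIRT6. That is 2.86% of them. Of all 9057 tested genes, 5.61% passed, 2.2% higher in C and 3.41% lower in C. With edgeR's quasi-likelihood test none of the chromatin genes was lower in C, whereas 17 were lower and 24 higher at an unadjusted p under 0.05, or 12.1% and 17.1% against 14.1% and 12.9% of all tested genes. DESeq2 called 9 higher and 3 lower, where it called 12.9% of the 8437 genes it gave an adjusted p, and limma-voom called the same 4 genes.

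Most differences were small. The median log2 fold change of the 140 genes was 0.0094, against -0.0044 over all tested genes, and its lower and upper deciles were -0.16 and 0.19, against -0.32 and 0.21. In 3 of them, CHD2, ING1 and SIRT4, the difference was 1.5-fold or more, where 481 of all tested genes reached that size. None of these 3 passed edgeR's test, and DESeq2 called ING1. In 26 genes every C library was above every K library, 18.6% against 16.1% of all tested genes, and in 16 every C library was below, 11.4% against 17.7%. Neither share was tested. The spread within a letter was low, with a median coefficient of variation (SD pooled over both letters, relative to the mean of all libraries) of 5.36% against 6.21% over all tested genes.

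HCFC1 lies on the minus strand of chromosome X from 153947553 to 153971807 (GRCh38). It was at 307.8, 287.0 and 313.4 CPM (counts scaled to the library total) in C1 to C3 and at 240.4, 201.8 and 233.0 CPM in K1 to K3. All C libraries were above all K libraries, with a gap between the letters wider than the spread within C. The means were 302.7 ± 13.9 CPM in C and 225.1 ± 20.5 CPM in K (SD, n = 3 each), which is 0.43 as a log2 fold change with an SE of 0.0729 (adjusted p = 0.0314). Its level per length was lower than that of DNMT1, at 46.4 to 50.1 TPM in C and 30.9 to 37.9 TPM in K. The call was kept without K2 (adjusted p = 0.0312) and lost without any of C1, C2, C3, K1 or K3, where the adjusted p was 0.0597 to 0.113 and the log2 fold change 0.40 to 0.48.

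DNMT1 lies on the minus strand of chromosome 19, from 10133346 to 10231286. It was at 897.3, 873.2 and 895.7 CPM in C and at 819.8, 804.9 and 808.8 CPM in K. The letters did not overlap and the libraries of each letter lay close together. The means were 888.7 ± 13.5 CPM and 811.2 ± 7.74 CPM (SD, n = 3 each), which is 0.13 as a log2 fold change with an SE of 0.0251 (adjusted p = 0.0403). This was a 1.10-fold difference in one of the most abundant chromatin transcripts. Leaving out any 1 of the 6 libraries ended the call, with an adjusted p between 0.0539 and 0.147, while the log2 fold change stayed between 0.12 and 0.14.

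CHD4, the main ATPase of NuRD, lies on the minus strand of chromosome 12 from 6570083 to 6607476. It was at 580.8, 570.0 and 614.3 CPM in C and 523.6, 513.1 and 525.6 CPM in K, again without overlap. C3 was the highest library. The means were 588.3 ± 23.1 CPM and 520.8 ± 6.74 CPM (SD, n = 3 each), which is 0.18 as a log2 fold change with an SE of 0.0355 (adjusted p = 0.0449). Its count is uncertain, because 40.4% of its 75-base exonic windows also occur in an overlapping gene model, AC006064.6, and the deposited counting could split such reads. An antisense model, AC006064.2, covers 10.2% of its exons, and whether counting used strand is not stated. Without each library in turn the adjusted p was 0.0668 to 0.129, so that the call was lost every time.

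SIRT6, a nuclear sirtuin that deacetylates H3K9 at telomeres, at DNA breaks and at promoters of glycolytic genes, lies on the minus strand of chromosome 19 from 4174109 to 4182604. It was at 55.6, 54.8 and 59.4 CPM in C and 46.9, 48.8 and 48.8 CPM in K. All C libraries were above all K libraries. The means were 56.6 ± 2.47 CPM and 48.2 ± 1.09 CPM (SD, n = 3 each), which is 0.23 as a log2 fold change with an SE of 0.0486 (adjusted p = 0.0488). Leaving out any 1 library ended the call here too, with an adjusted p of 0.0668 to 0.134. On the log2(TPM + 1) scale it was the single chromatin gene past the threshold (adjusted p = 0.0494). HCFC1, DNMT1 and CHD4 were just beyond it there, at 0.0508, 0.0505 and 0.0575.

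Sequence just upstream of the RefSeq start is shown for called genes, to give the context of their transcripts. RefSeq's promoter set for GRCh38.p14 held windows for DNMT1, CHD4 and SIRT6, and HCFC1 is named only. For SIRT6 it held 2 windows, and only the one furthest upstream was used. Bases 250 to 51 before the RefSeq start are printed for DNMT1 and SIRT6, both on the minus strand and 5′ to 3′, at chr19:10195004-10195203 and chr19:4182614-4182813. Capitals mark 3 motifs searched on both strands: the GC box GGGCGG, the NRF1 recognition sequence GCGCATGCG and the CCAAT box.
DNMT1: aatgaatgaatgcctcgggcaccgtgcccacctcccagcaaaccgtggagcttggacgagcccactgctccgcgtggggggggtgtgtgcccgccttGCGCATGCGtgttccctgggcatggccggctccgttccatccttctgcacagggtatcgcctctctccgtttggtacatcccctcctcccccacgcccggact
SIRT6: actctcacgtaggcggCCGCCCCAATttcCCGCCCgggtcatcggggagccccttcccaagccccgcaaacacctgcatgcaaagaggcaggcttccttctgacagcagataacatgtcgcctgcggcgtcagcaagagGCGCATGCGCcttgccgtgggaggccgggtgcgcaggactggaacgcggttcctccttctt

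Both printed windows hold GCGCATGCG, in SIRT6 as a run that reads the same on both strands and so matches on each. Matches in the CHD4 window are not reported, so the printed windows do not stand for all called genes. The SIRT6 window also holds 2 GC boxes in the reverse orientation and 1 CCAAT box, which overlaps the first of them. Of 35116 RefSeq promoter windows of the same length, 0.982% hold GCGCATGCG, 35% GGGCGG and 27.4% CCAAT on either strand. GC content is 65.5% for DNMT1 and 64.5% for SIRT6, with 15 and 17 CpG dinucleotides, against medians of 57.5% and 8 over all windows. These matches describe the letters and were not tested for binding. The windows of DNMT1 and CHD4 lie inside the intervals the deposited table gives for these genes, which reach further upstream than the RefSeq start used, and the CHD4 window is not shown.

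The 5 chromatin genes with the smallest p beyond the threshold were CBX8, ARID4A, BRD8, INO80D and KDM4B. CBX8, a Polycomb repressive complex 1 chromodomain protein, was at 38.1, 39.9 and 41.4 CPM in C and 31.5, 34.6 and 30.4 CPM in K (log2 difference 0.31, adjusted p = 0.0521). ARID4A, a DNA-binding protein of SIN3 deacetylase complexes, was at 30.3, 28.2 and 28.4 CPM in C and 41.1, 33.7 and 37.7 CPM in K (log2 difference -0.37, adjusted p = 0.0545). Neither passed in the main edgeR fit on all 6 libraries, and both passed edgeR's test without K2 (adjusted p = 0.0372 and 0.0347). CBX8 also passed edgeR's test on all 6 libraries with library size alone and with a filter at a mean of 50 counts.

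BRD8, a bromodomain subunit of the TIP60 acetyltransferase complex, was at 133.3, 125.9 and 129.2 CPM in C and 142.6, 141.8 and 148.6 CPM in K (adjusted p = 0.0635). INO80D, an accessory subunit of the INO80 remodeller, was at 21.1, 22.4 and 22.1 CPM in C and 25.5, 24.7 and 26.2 CPM in K (adjusted p = 0.0637), but its deposited TPM overlapped between the letters, at 2.12 to 3.31 and 2.51 to 3.45. KDM4B, which removes H3K9 methylation, was at 123.5, 119.9 and 127.7 CPM in C and 113.7, 112.4 and 106.8 CPM in K (adjusted p = 0.0791). DESeq2 called CBX8, ARID4A, BRD8 and KDM4B on the 6 libraries. In CPM none of these 5 genes overlapped between the letters, CBX8 and KDM4B being above in C and the other genes below. Choosing genes by p favours such separation, which 16.1% (above) and 17.7% (below) of all tested genes had.

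**Figure D2:**
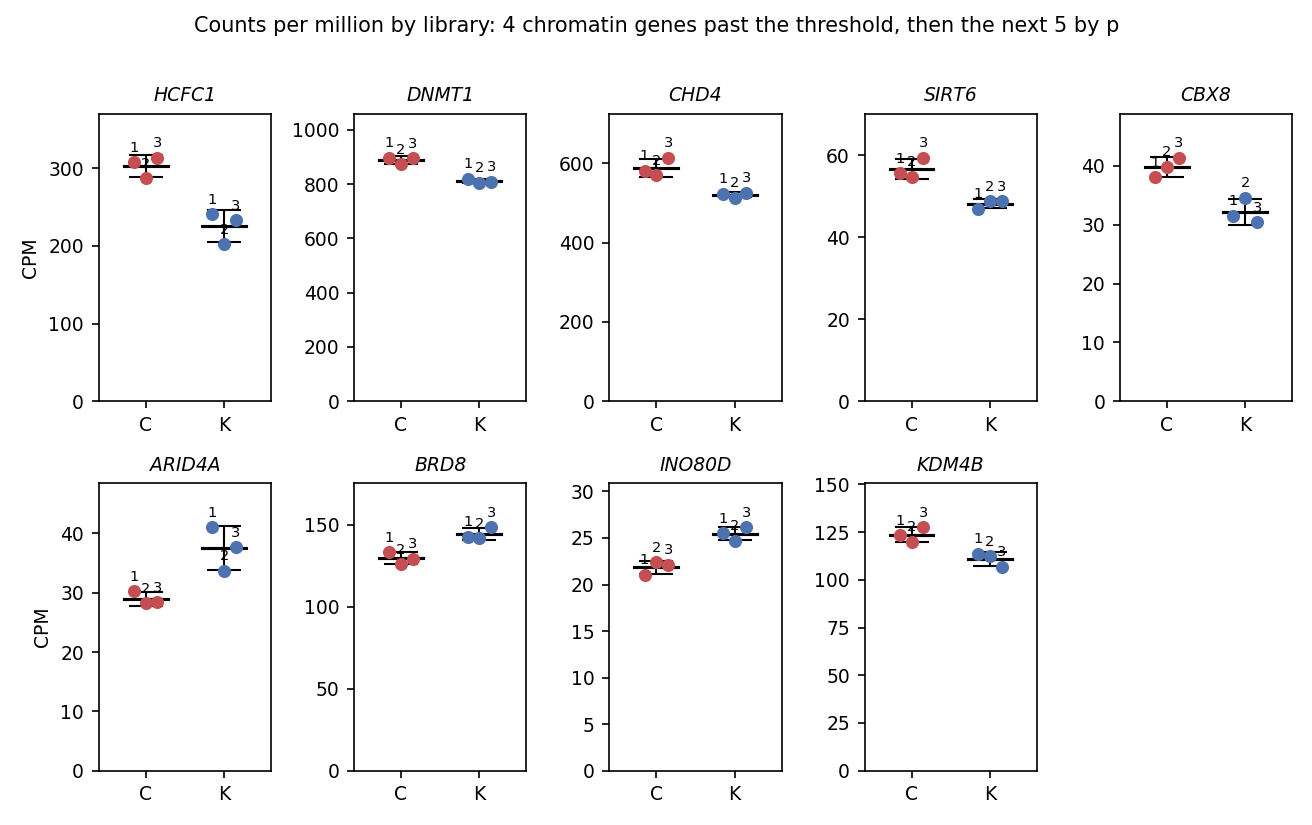
CPM in each library for the 4 chromatin genes past the threshold (HCFC1, DNMT1, CHD4, SIRT6) and the next 5 by p, with axes from 0. Points are libraries with their replicate numbers, and black lines are means with the SD over 3 libraries. In each panel the C points lie wholly above or wholly below the K points, as for HCFC1 at 287.0 to 313.4 against 201.8 to 240.4. The genes were chosen by p, which favours such separation.

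Among writers of histone methylation, none of the 22 lysine methyltransferase and PRC2 genes passed edgeR's test, and DESeq2 called 1, SETD7. With edgeR 5 were higher and 2 lower at an unadjusted p under 0.05. Those are 22.7% and 9.09%, against 12.9% and 14.1% of all tested genes. The median log2 fold change of the 22 genes was -0.0099. The 6 genes whose C libraries were all above K, chosen for description after their values were seen, were SETD1A, SETD1B, KMT2B, KMT2D, SUV39H1 and SETD7, which is 27.3% of the group against 16.1% of all tested genes. The first 4 are H3K4 methyltransferases of the SET1/MLL family, a grouping that was not tested. Their log2 fold changes were 0.09, 0.16, 0.09, 0.18, 0.13 and 0.15, with adjusted p between 0.0807 and 0.191. KMT2A, another H3K4 enzyme of that family, was at 218.5, 208.2 and 222.8 CPM in C and 225.6, 203.9 and 232.1 CPM in K, overlapping. The transcripts of SETD1A, SETD1B, KMT2B and KMT2D held 62.35%, 61.32%, 63.48% and 59.09% GC, and that of KMT2A 46.92%. With the offset for GC content and gene length described below, their log2 fold changes were 0.064, 0.13, 0.061 and 0.15, and that of KMT2A -0.017. SETDB2 was the 1 gene of the group with every C library below K, at 11.5 to 12.9 against 13.8 to 14.7 CPM (adjusted p = 0.153).

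The PRC2 core did not separate the letters. EZH2, its catalytic subunit, was at 147.0, 134.1 and 137.2 CPM in C and 145.4, 134.9 and 137.4 CPM in K. SUZ12 was at 149.3 to 159.9 CPM in C and 155.0 to 192.6 CPM in K (log2 difference -0.22, adjusted p = 0.167), and EED at 81.7 to 85.3 CPM and 69.2 to 83.3 CPM (log2 difference 0.14, adjusted p = 0.252). K2 was the K library nearest to C in both, and SUZ12 passed, lower in C, when K2 was left out. PHF1, an accessory protein that guides PRC2 to chromatin, was at 108.1, 124.8 and 119.2 CPM in C and 93.4, 73.2 and 104.3 CPM in K (adjusted p = 0.131 with edgeR; DESeq2 called it). SUZ12, EED and PHF1 were also chosen after their values were seen.

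Of 7 tested arginine methyltransferases, 0 passed edgeR's test, and DESeq2 called 0. With edgeR 1 was higher at an unadjusted p under 0.05, or 14.3% against 12.9% of all tested genes. PRMT1 was at 657.6, 606.3 and 614.9 CPM in C and 591.9, 596.6 and 612.4 CPM in K, which overlap (log2 difference 0.06, adjusted p = 0.358). PRMT5, the main symmetric enzyme, overlapped as well, at 274.4 to 314.8 and 270.4 to 284.3 CPM.

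Of 13 tested lysine demethylases, 0 passed with edgeR, and DESeq2 called KDM4B. At an unadjusted edgeR p under 0.05, 2 were higher, or 15.4% against 12.9% of all tested genes. In 4 demethylases, KDM1B, KDM4B, KDM6B and KDM7A, every C library was above K, and in 0 every C library was below. The 4 are 30.8% of the group, against 16.1% of all tested genes. KDM5C, the most abundant, was at 369.7, 358.1 and 382.1 CPM in C and 367.1, 349.1 and 380.3 CPM in K.

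None of the 5 acetyltransferases passed, or had an unadjusted p under 0.05, with edgeR, and DESeq2 called 0. EP300, which acetylates H3K27 at enhancers, was at 161.7 to 167.4 CPM in C and 143.9 to 165.0 CPM in K. Of the 13 deacetylases and sirtuins, SIRT6 passed. With edgeR 3 were higher and 2 lower at an unadjusted p under 0.05. Those are 23.1% and 15.4%, against 12.9% and 14.1% of all tested genes. Every C library was above K in 4 of the 13, or 30.8%, and below in 2, or 15.4%. Over all tested genes those shares were 16.1% and 17.7%. HDAC3 was at 140.5, 139.0 and 137.2 CPM in C and 130.1, 131.5 and 129.8 CPM in K, which do not overlap (log2 difference 0.09, SE 0.0295, adjusted p = 0.119). HDAC6, which deacetylates tubulin, was at 64.9 to 68.9 CPM in C and 71.2 to 72.9 CPM in K (log2 difference -0.12, adjusted p = 0.123). SIRT5, the mitochondrial desuccinylase, was at 22.2 to 26.6 CPM in C and 27.2 to 30.1 CPM in K, with every C library below K (log2 difference -0.21, adjusted p = 0.167). HDAC6 and SIRT5 were chosen after their values were seen.

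Of 17 tested CHD, NuRD, ISWI and INO80 genes, CHD4 passed. In 4 others, INO80D, CHD9, SMARCAD1 and SMARCA5, every C library was below K, which is 23.5% of the group against 17.7% of all tested genes. Their transcripts held 39.5%, 38.4%, 36% and 39.0% GC. In that order their log2 fold changes were -0.22, -0.15, -0.16 and -0.10. With the offset for GC content and gene length described below they were -0.14, -0.05, -0.02 and -0.005. SMARCA5, the ISWI ATPase, was at 163.8, 164.6 and 160.7 CPM in C and 174.8, 171.4 and 176.5 CPM in K (log2 difference -0.10, adjusted p = 0.113); it was chosen after its values were seen. MTA2, the partner of CHD4 in NuRD, was at 456.7, 475.9 and 502.3 CPM in C and 428.9, 462.2 and 415.8 CPM in K, overlapping at K2 (log2 difference 0.13, adjusted p = 0.17).

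In SWI/SNF, 0 of 10 subunits passed with edgeR, and DESeq2 called 0. At an unadjusted edgeR p under 0.05, 1 was higher, or 10% against 12.9% of all tested genes. SMARCB1, a core subunit and tumour suppressor, was the 1 whose letters did not overlap, at 132.7, 126.5 and 145.8 CPM in C and 122.6, 119.3 and 119.0 CPM in K (log2 difference 0.17, adjusted p = 0.127). Of 7 nuclear receptor coregulators, 0 passed with edgeR, and DESeq2 called 0. At an unadjusted edgeR p under 0.05, 1 was lower, or 14.3% against 14.1% of all tested genes. NCOR1, the corepressor that activates HDAC3, was at 205.1, 206.3 and 205.8 CPM in C and 189.6 to 217.3 CPM in K.

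The 28 tested readers held the widest range of differences, from a log2 fold change of -0.50 for PHF3 to 0.69 for ING1, with 0 past edgeR's threshold, and 6 higher and 5 lower at an unadjusted p under 0.05, or 21.4% and 17.9% against 12.9% and 14.1% of all tested genes. DESeq2 called 5 of them, BRD8, CBX8, ING1, PHF1 and PHF3, where it called 12.9% of all genes. BRD2, a bromodomain protein of the BET family, was at 418.2, 450.3 and 431.0 CPM in C and 410.9, 390.2 and 394.2 CPM in K, without overlap (log2 difference 0.12, adjusted p = 0.116). ING1 and PHF3 were chosen after their values were seen. ING1, a PHD protein of SIN3 complexes, was at 31.2, 30.5 and 29.2 CPM in C and 13.5, 14.7 and 28.04 CPM in K, so that K3 lay beside the C libraries (adjusted p = 0.171); it passed when K3 was left out. PHF3 was at 168.0, 143.6 and 223.0 CPM in C and 260.5, 234.3 and 261.9 CPM in K (adjusted p = 0.109), with C3 nearest to K, and passed when C3 was left out.

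Among 9 tested genes of DNA methylation, DNMT1 passed. The de novo enzymes DNMT3A and DNMT3B had log2 fold changes of 0.09 and -0.15 (adjusted p = 0.614 and 0.294), both with overlapping letters. MBD4, a glycosylase that repairs mismatches at CpG sites, was at 48.9 to 51.1 CPM in C and 53.8 to 60.3 CPM in K (log2 difference -0.18, adjusted p = 0.108); DNMT3B and MBD4 were chosen after their values were seen. TET3 had the highest level of the TET enzymes at 6.18 TPM, followed by TET2 at 3.72 TPM and TET1 at 0.124 TPM.

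Among HCFC and ASXL cofactors, HCFC2, a paralogue of HCFC1, was at 18.5, 17.3 and 18.0 CPM in C and 20.3, 19.2 and 19.7 CPM in K, with every C library below K (log2 difference -0.14, adjusted p = 0.179). It was chosen after its values were seen. Its transcript held 36.7% GC, against 61.5% for HCFC1. In edgeR with the offset for GC content and gene length described below, its log2 fold change was -0.0155 (adjusted p = 0.896). ASXL1, a cofactor of the BAP1 histone deubiquitinase, was at 470.7, 472.1 and 444.2 CPM in C and 458.1, 453.6 and 460.2 CPM in K, overlapping. Of 4 tested ARID proteins outside SWI/SNF, 0 passed with edgeR, and DESeq2 called ARID4A. With edgeR 1 was higher and 1 lower at an unadjusted p under 0.05. Each is 25% of the group, against 12.9% and 14.1% of all tested genes.

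Differences within the set followed the GC content of the transcripts. Across the 140 genes the log2 fold change of C minus K had a Spearman correlation of 0.48 with GC content (Pearson 0.41), against 0.25 over 9048 tested genes. This is a relation across genes that share their 6 libraries, not across independent samples. With cut points at 42.2%, 48.6% and 57.0% GC, which split all tested genes into 4 equal bins, 8 of 29 and 8 of 33 chromatin genes in the lower pair of bins had a positive log2 fold change. In the upper pair it was 32 of 42 and 27 of 36. As shares, those are 27.6%, 24.2%, 76.2% and 75%, where all tested genes had 26.7%, 48.6%, 61.5% and 59.1%.

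The chromatin genes had a median GC content of 51.02%, against 48.6% over all tested genes, and exons of 7234 bases against 5044. The log2 length of the merged exons had little relation with the difference, with a Spearman correlation of -0.07 and a Pearson correlation of -0.15. Of the called genes, SIRT6 had 64.9% GC, HCFC1 61.5%, DNMT1 55.4% and CHD4 51.8%, all in the upper pair of bins. ARID4A, at 37.6% GC, and INO80D, at 39.5%, had log2 fold changes of -0.37 and -0.22 and did not pass edgeR's test, and DESeq2 called ARID4A.

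**Figure D3:**
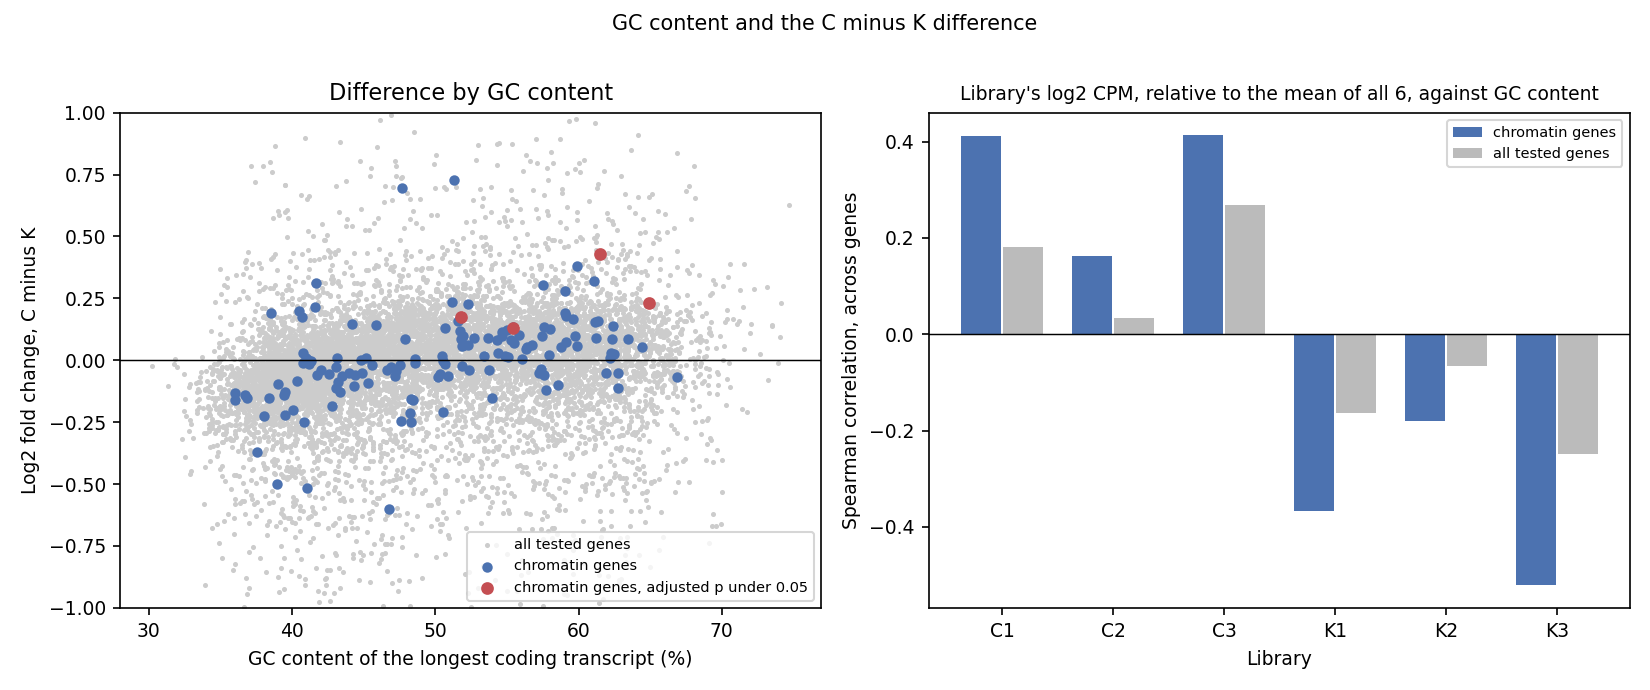
The left panel plots the log2 fold change of C minus K against the GC content of the longest coding transcript for all tested genes (grey; 115 genes beyond 1 in size are not drawn) and the 140 chromatin genes (blue; red where adjusted p was under 0.05). The right panel gives, for each library, the Spearman correlation across genes between its log2 CPM relative to the mean of all 6 and GC content; for the chromatin genes it is positive in C1 to C3 and negative in K1 to K3.

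Library by library, the log2 CPM of the chromatin genes relative to the mean of all libraries had a Spearman correlation with GC content of 0.41, 0.16 and 0.41 in C1, C2 and C3 and of -0.37, -0.18 and -0.52 in K1, K2 and K3. All C libraries were thus on one side and all K libraries on the other, with C2 and K2 nearest to 0. Leaving out each library in turn left the relation of the difference with GC content between 0.40, without K3, and 0.52, without K2. When a smooth offset for GC content and gene length was fitted to each library, the correlation was 0.26 for the chromatin genes and 0.02 over all tested genes. The offset was fitted over all tested genes, so the low value over them follows from the fit. The 4 calls stayed, with log2 fold changes of 0.40 for HCFC1, 0.11 for DNMT1, 0.15 for CHD4 and 0.23 for SIRT6 (adjusted p = 0.0233, 0.0397, 0.0308 and 0.0407), and SETD7 joined them. The offset moved the share of calls that were higher in C from 39.2% to 56% over all genes. What sets the relation with GC content was not tested.

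Summed over the set, TPM was 6349, 6381 and 6405 in C1 to C3 and 6080, 5996 and 6240 in K1 to K3, without overlap. As a share of the TPM outside the mitochondrial genome it was 1.01%, 1.02% and 1.02% in C and 1.02%, 0.985% and 1.04% in K, which overlap. Mitochondrial transcripts took the higher share of counts in K given above. Less RNA per cell and fewer cells with the RNA cannot be told apart in such bulk libraries.

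Ratios between paralogues were compared for 7 pairs whose genes were both listed, out of 18 pairs of alternative subunits or enzymes. CHD3 and CHD4, alternative ATPases of NuRD, had a log2 ratio of TPM of -0.145, -0.101 and -0.099 in C and 0.033, -0.018 and 0.075 in K. The letters did not overlap, and the ratio was lower in C by a log2 difference of -0.15. By an exact two-sided permutation test over the 6 libraries p was 0.1, the smallest that 20 assignments allow, and 0.42 adjusted over the 7 pairs, so no pair could pass. CHD3 itself was at 422.9, 421.9 and 460.2 CPM in C and 432.5, 414.0 and 454.5 CPM in K.

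The other 6 ratios overlapped between the letters. DNMT1 over DNMT3A had the highest log2 ratio, between 5.17 and 5.62, and KAT2A over KAT2B followed at 3.50 to 3.79. EZH1 stood below EZH2 by a log2 ratio of -2.15 to -1.89. KDM6A exceeded KDM6B, the other H3K27 demethylase, by 0.63 to 1.06. KMT2A and KMT2B were the closest, at 0.15 to 0.43. Their differences of C minus K were between -0.15 and 0.17, with exact permutation p from 0.2 to 0.9.

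**Figure D4:**
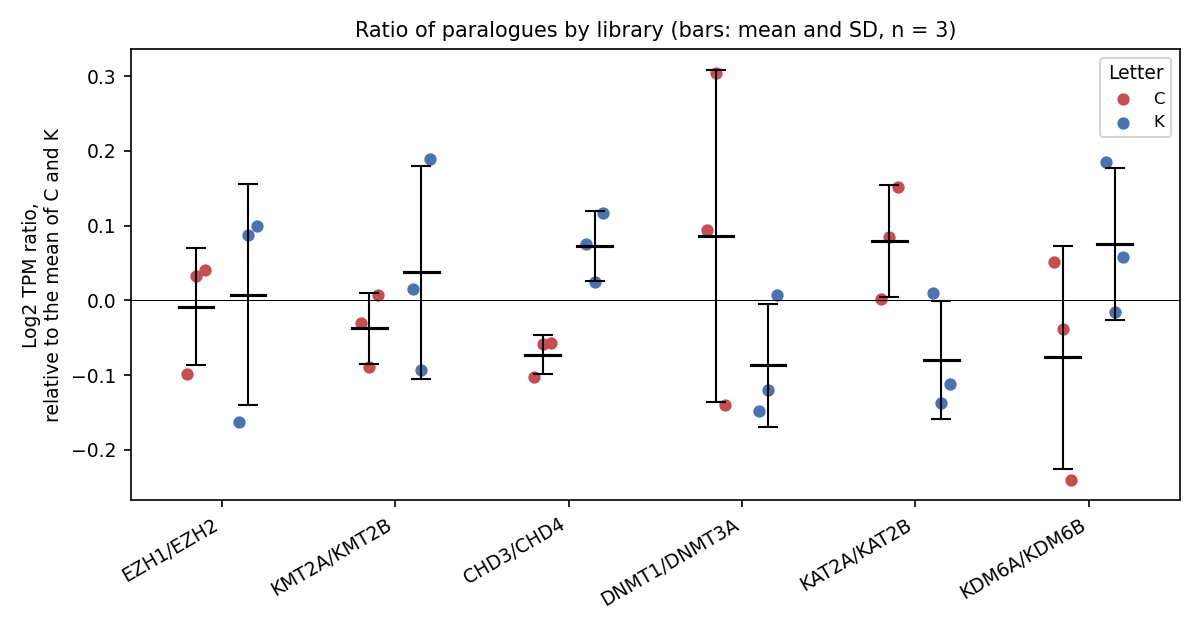
Log2 ratio of the TPM of 2 paralogues in each library for 6 of the pairs, drawn relative to the midpoint of the C and K means of that pair; points are libraries, lines are means with the SD (n = 3). CHD3/CHD4 is the pair whose C points, -0.145 to -0.099 before centring, all lie below its K points, -0.018 to 0.075.

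Of the 140 genes, 5 had a coefficient of variation above 30% by that pooled measure and were chosen after their values were seen. In 4 of them, ASXL2, CHD2, CBX1 and INO80B, 1 library stood apart. ASXL2 was at 31.3 CPM in K2 and between 90.9 and 115.1 CPM elsewhere. CHD2 was at 133.0 CPM in K3 and between 54.8 and 76.9 CPM elsewhere, and CBX1, the HP1 beta protein of heterochromatin, was at 75.7 CPM in C3 and between 192.4 and 209.9 CPM elsewhere. Each of these gaps is wider than the whole range of the other 5 libraries.

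INO80B was at 8.06 CPM in C1, where the readthrough gene INO80B-WBP1, which holds 51.5% of its 75-base windows, was at 9.67 CPM and listed at 0 in every other library. Their sum was 17.7, 19.6 and 20.5 CPM in C and 14.9, 20.4 and 16.7 CPM in K, so that C1 no longer stood apart. TET1, at 0.506 to 1.47 CPM, had the lowest level per length of the tested chromatin genes. None of the 5 passed the test. CHD2 had the lowest log2 fold change of the set, -0.60 (SE 0.275, adjusted p = 0.222), with K3 far above K1 and K2.

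**Figure D5:**
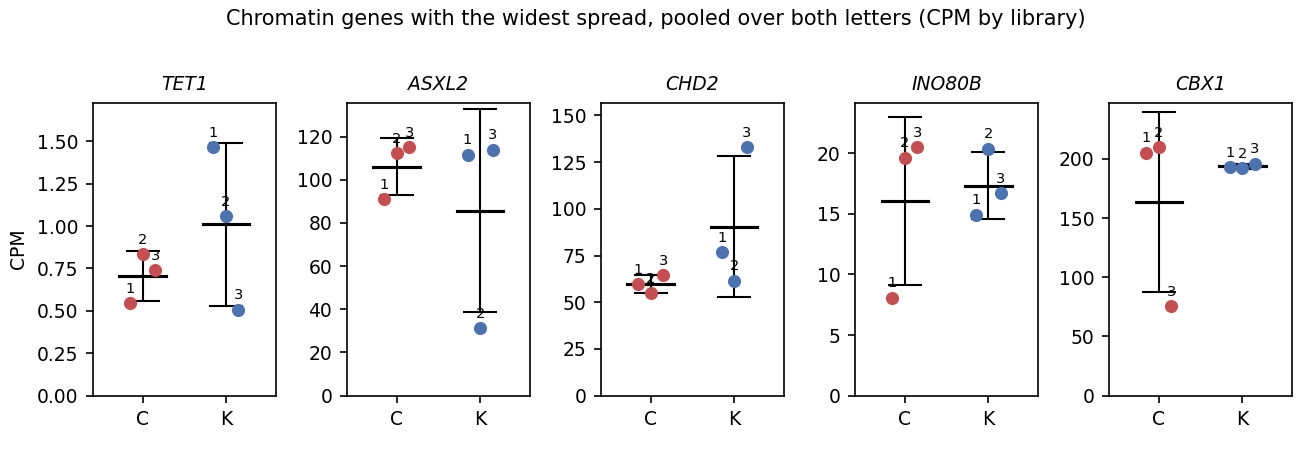
CPM in each library for the 5 chromatin genes with a coefficient of variation above 30%, from the SD pooled over both letters, with axes from 0; points carry the replicate number, and black lines are means with the SD (n = 3). K2 is apart for ASXL2 at 31.3, K3 for CHD2 at 133.0 and C3 for CBX1 at 75.7.

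Partner subunits and other chromatin genes whose symbols the rule does not take were read from a list chosen by role. Of its 138 genes, 104 were listed and 100 tested, and 6 were higher in C with 0 lower, or 6% against the 5.61% of all tested genes. At an unadjusted p under 0.05, edgeR had 16 higher and 15 lower, or 16% and 15% against 12.9% and 14.1% of all tested genes, and DESeq2 called 8 higher and 3 lower. The 6 were TRIM28, RUVBL2, ACTR5, SSRP1, USP22 and DPF2, and the median log2 fold change of the 100 was -0.0009.

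TRIM28 (KAP1), the corepressor that recruits SETDB1 and NuRD to KRAB zinc-finger proteins, was at 1231, 1185 and 1234 CPM in C and 995.6, 1033 and 1006 CPM in K. Its log2 fold change was 0.27 (SE 0.0292, adjusted p = 0.00927), the smallest adjusted p among both lists, and the call was lost without C1 (adjusted p = 0.0585) and kept without each of the other libraries (up to 0.049). SETDB1 itself was at 53.7 to 59.7 CPM in C and 54.7 to 61.3 CPM in K. ACTR5, an actin-related subunit of INO80, was at 32.0, 33.4 and 32.0 CPM in C and 24.7, 27.4 and 25.04 CPM in K (log2 difference 0.34, adjusted p = 0.0338). RUVBL2, an ATPase shared by INO80 and TIP60, was at 554.5, 554.1 and 569.0 CPM in C and 491.6, 507.6 and 484.8 CPM in K (log2 difference 0.18, adjusted p = 0.0298). Both were kept without K2 and lost without any other single library, with adjusted p up to 0.117 and 0.108.

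SSRP1 of the FACT histone chaperone had a log2 fold change of 0.15 (adjusted p = 0.0418). USP22, the deubiquitinase of SAGA, had 0.26 (adjusted p = 0.0492), and DPF2, a PHD subunit of SWI/SNF, 0.16 (adjusted p = 0.0494). All 3 calls were lost whichever library was left out, with adjusted p up to 0.149.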

How the data were processed

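The authors deposited 1 table of genes with whole-number counts, TPM and FPKM for each of 6 libraries, per the file headers. The count columns are treated as unscaled reads, and the deposited TPM and FPKM scale by gene length and library total. FPKM was used only for the gene length it implies. Tools listed in the submitters' processing notes are StringTie 1.3.3b, HISAT2 2.1.0, Trimmomatic and FastQC 0.11.2, with GRCh38 and hg38 as builds. How reads were counted, and whether by strand, is not given in the sources used here. The 13707 complete rows hold 67.1% to 67.9% of the full TPM total, so other genes are not analysed here, and 1 further row was incomplete.

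Counts of all genes were fitted with edgeR 4.0.16 (R 4.3.3): filterByExpr (minimum count 10, minimum total 15; 9057 genes), TMM factors (0.993 to 1.007) and the quasi-likelihood test of C against K with no covariate, adjusted by the Benjamini-Hochberg method over all tested genes at 0.05. CPM are scaled by TMM. Log2 fold changes are C minus K. The biological coefficient of variation was 13.2%, and no 2 libraries agreed within sampling noise (chi-square per degree of freedom at least 22.4). The fit was tested on simulated data. Exact permutation tests compared paralogue ratios, and overlaps, shared 75-base windows and GC content (of the longest protein-coding transcript, or the longest of any kind where there is none; exon lengths merge all transcripts) came from GENCODE release 29.

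The members and lists were chosen with earlier results of these data known. Genes named by rule were those past the threshold, HCFC1, the most abundant of each role group, the next 5 by p, paralogue pairs and called genes of the second list. Alternatives were DESeq2 1.42.0, its size factors in edgeR, library size alone, other filters, a replicate block, limma 3.58.1 (voom, and log2(TPM + 1) and log2(TPM + 0.1)), a length and GC offset, and leaving out each library. Leaving out mitochondrial genes was added after seeing the data. The level of 1 listed gene on the Y chromosome is not reported. Values of 2 further genes, and 1 paralogue ratio, are not reported here.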

Additional observations from a re-analysis of the deposited data

How the results depend on the processing

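The 4 calls, HCFC1, DNMT1, CHD4 and SIRT6, kept their sign under all 17 alternatives. These reuse the same libraries. In all 4 genes every C library was above every K library, so leaving 1 out could hardly have turned the sign. The calls were kept with DESeq2 size factors, library size only, a mean of at least 50 counts, DESeq2 and limma-voom. They were also kept with the length and GC offset and without mitochondrial genes, and 3 of the 4 with no filter. Same-numbered libraries were no more alike than others. Correlations of deviations were -0.0891, 0.0323 and -0.0043 for same-numbered libraries and -0.0809 to 0.0834 for the others, and 1 sample correlated best with its own number. The labels do not say what the numbers stand for, so these correlations cannot decide whether the libraries were paired. With the replicate block 0 chromatin genes were called, in 0 role groups, and 4 genes higher and 21 lower over the table, with 0 of the second list. DESeq2 called 9 chromatin genes higher and 3 lower in 8 role groups, 555 and 533 over the table, and 8 higher and 3 lower of the second list. With log2(TPM + 1), 1 chromatin gene in 1 role group, 135 higher and 144 lower over the table and 3 higher of the second list were called; with log2(TPM + 0.1), 0 in 0 groups, 127 higher and 138 lower, and 3 higher. The offset called 328 higher and 258 lower. Without each library in turn the counts were 0 to 2 chromatin genes higher, 0 to 2 lower, 0 to 4 role groups, 18 to 249 higher and 59 to 284 lower over the table, and 0 to 3 higher and 0 to 4 lower in the second list. The highest of each, apart from ties, came without K2. The cause was not tested.

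The median log2 fold change of chromatin genes was 0.0342 and 0.035 on the 2 TPM scales, and 0.0016 to 0.0236 without each library. Over all tested genes it was 0.0004 with DESeq2 size factors, -0.0098 unfiltered, -0.0032 at the mean of 50, -0.0033 with DESeq2, 0.0166 and 0.0178 on the TPM scales, 0.0308 with the offset, -0.0055 without mitochondrial genes, and -0.0062 to -0.0038 without each library. Paralogue pairs without overlap numbered 3 on counts per kilobase and 1 to 3 without each library.

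Signs turned in uncalled genes near 0. The offset gave -0.011 for ASXL1, -0.0084 for KDM5C, -0.0214 for CHD3 and 0.0045 for NSD2. The TPM scales gave 0.1012 and 0.1018 for NSD2, 0.0151 and 0.0159 for EZH1, 0.0284 and 0.0299 for KMT2A, and -0.0152 and -0.019 for DNMT3A. EZH1 was 0.0022 with DESeq2 size factors and 0.0028 with DESeq2, and EZH2 -0.0008 at the mean of 50. Without each library PHF19 ran from -0.0085 to 0.0502, KDM5C from -0.0155 to 0.0476, NSD2 from -0.1767 to 0.1465, NSDHL from -0.0089 to 0.0411, NCOA4 from -0.0141 to 0.0226, EZH1 from -0.0224 to 0.0289, KMT2A from -0.0809 to 0.0126, CHD3 from -0.0377 to 0.04 and EZH2 from -0.0376 to 0.0338. TET1, at 0.506 to 1.47 CPM, rests on the fewest reads of the tested chromatin genes.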
